A study of Sus scrofa with 29 samples.

Results

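Cytosolic ribosomal protein genes encode the proteins of the large and small subunits of the ribosome that translates messenger RNA in the cytoplasm. The genes described here were chosen by name alone: each has 1 platform gene symbol that begins with RPL or RPS and a number, or is RPLP0, RPLP1, RPLP2 or RPSA, with the RPS6 kinases left out. The rule found 96 probe sets of 64 genes. RPS19BP1, a binding partner of RPS19 that is not itself a ribosomal protein, was set apart, which left 63 genes (38 large subunit, 25 small subunit) of the 6765 genes with 1 symbol on the array. Each gene was represented by its probe set with the highest mean over all arrays.

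The study asked how the endothelial gene expression of conduit arteries of healthy pigs differs after exercise training. Cells were scraped from the lumen of the brachial artery, a forelimb artery, and of the internal mammary artery, a chest wall artery, in the same animals. There were 7 brachial arrays from exercised pigs, 7 brachial arrays from sedentary pigs, 8 internal mammary arrays from exercised pigs and 7 internal mammary arrays from sedentary pigs, 29 in all from 15 pigs, of which 14 gave both arteries. By the titles the remaining pig, an exercised one, gave the internal mammary artery alone, whereas the design text has it as brachial alone, and the titles were followed. Exercised pigs had trained for 16 to 20 weeks, 5 days per week, and tissue was taken 24 h after the last bout, whereas sedentary pigs did no training. No genetic change or drug is given for either group.

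Ribosomal protein genes are among the most strongly transcribed genes of most cells, and their products are assembled with ribosomal RNA in nearly equal numbers. Translation of these messages is controlled as a group through a pyrimidine-rich start of the transcript that responds to growth signals, so messenger RNA levels and protein synthesis can differ. Several members have roles beyond the ribosome. RPL5 and RPL11 bind MDM2 when ribosome assembly is disturbed, RPS6 is phosphorylated by S6 kinases downstream of mTOR, and RPSA is also known as a laminin receptor.

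Most probe sets used for the ribosomal protein genes lay near the top of the measured range and varied little. Whether values so near the top follow the amount of transcript was not tested. A small spread or difference here is that of the probe set. Of the 63 genes, 53 had a mean log2 intensity above 13 in a table whose highest value was 14.79, 7 had a mean from 9 to 13, and 3 had a mean below 7 (RPL26 at 6.32, RPS15A at 4.69 and RPL30 at 4.65). A low probe set value shows the brightness of that probe set and not the abundance of the transcript, since intensities of different probe sets cannot be compared. The median SD within groups was 0.0574 for the members and 0.186 for all probe sets. Among probe sets with a mean above 13, it was 0.0521 for the members and 0.103 for the other 201. RPS27A, which is made as a fusion with ubiquitin, had the lowest SD of the members at 0.0295. The 5 largest were those of RPL26 at 0.205, RPL30 at 0.188, RPS27L at 0.168, RPS15A at 0.158 and RPL22L1 at 0.1509. RPL7L1 came next at 0.1508. RPS27L, RPL22L1 and RPL7L1 are paralogs of RPS27, RPL22 and RPL7.

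**Figure D1:**
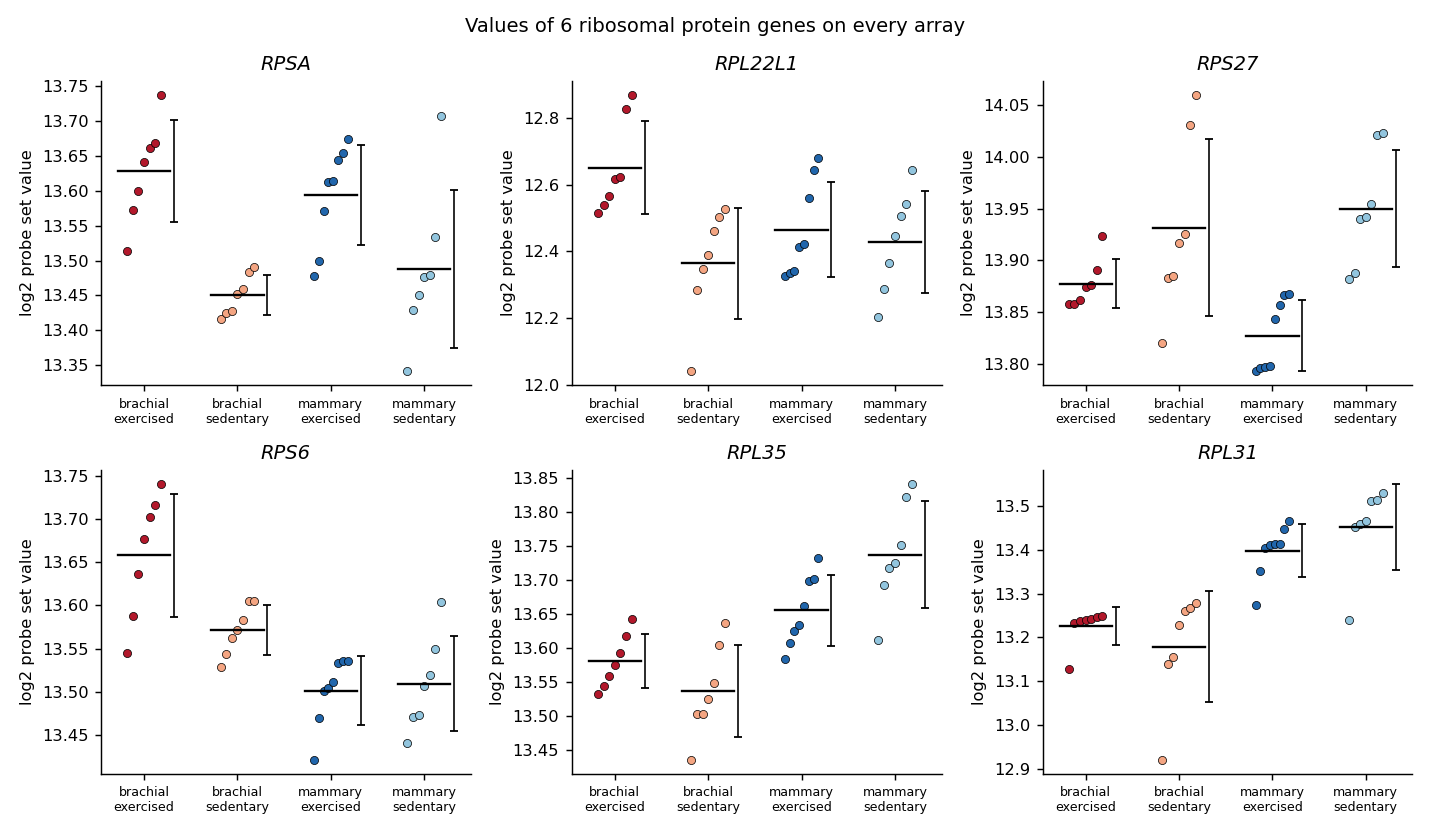
Log2 intensity of RPSA, RPL22L1, RPS27, RPS6, RPL35 and RPL31 on each array (1 point per pig) in the 4 groups, with the group mean as a line and the SD as a bar. Exercised and sedentary points are separate for RPSA in the brachial artery and for RPS27 in the internal mammary artery, and most RPL31 points are lower in the brachial artery.

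The endothelial markers PECAM1 (mean log2 intensity 13.97), TEK (12.40) and CDH5 (12.39) were bright on these arrays, VWF was at 7.53 and KDR at 4.03. The mean deviation per array of 12 smooth muscle markers, whose mean log2 intensities lay between 7.72 and 13.76, ran from -0.75 to 0.95 in exercised brachial arteries, -0.66 to 1.29 in sedentary brachial arteries, -0.80 to 0.71 in exercised internal mammary arteries and -0.47 to 0.92 in sedentary internal mammary arteries. Macrophage markers, 9 measured, ran from -0.65 to -0.12 in exercised brachial arteries and from -0.31 to 0.80 in sedentary brachial arteries, and from -0.34 to 0.48 in exercised and -0.16 to 0.70 in sedentary internal mammary arteries. With training 3 of the 9 fell in the brachial artery, where 1.63% of all probe sets passed. In the internal mammary artery 0 passed (0 at an unadjusted p under 0.05), where 0.596% of all probe sets did. Between arteries 5 of 9 were lower in the brachial artery in exercised pigs, where 17% of all probe sets fell. Over both training groups 5 of 9 were lower too, where 22.5% of all probe sets fell. In sedentary pigs 0 passed (0 at an unadjusted p under 0.05), where 34.8% of all probe sets did. In such mixed scrapes, fewer cells of a type and less RNA per cell cannot be told apart.

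Training was first compared within the brachial artery, where no ribosomal protein gene passed the test (limma, Benjamini-Hochberg adjusted p under 0.05 over 23999 probe sets). In that comparison 1.63% of all probe sets passed. Of the 63 members, 45 had higher means in exercised pigs and 18 lower, where 53.4% of all probe sets were higher. The members are correlated with each other, so such signs are not separate observations. An unadjusted limma p under 0.05 was found for 5 members, and for 3686 of all 23999 probe sets. The members' median log2 difference was 0.01, as it was over all probe sets. The differences ranged from -0.15 to 0.28. Among large subunit genes 25 of 38 were positive with a median of 0.01, and among small subunit genes 20 of 25 with a median of 0.02.

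RPL22L1, a paralog of the RNA-binding large subunit protein RPL22, had the largest brachial difference of the members. Its lowest, median and highest log2 intensities were 12.52, 12.62 and 12.87 in exercised brachial arteries (mean 12.65 ± 0.141, SD, n = 7), against 12.04, 12.39 and 12.53 in sedentary ones (12.36 ± 0.167, SD, n = 7). All 7 exercised arrays lay above the sedentary mean, and the ranges overlapped slightly. The difference was 0.28 ± 0.08 on the log2 scale (SE), with a limma adjusted p of 0.0559, just outside the threshold. In the internal mammary artery the lowest, median and highest were 12.33, 12.42 and 12.68 in exercised pigs, against 12.20, 12.45 and 12.64 in sedentary pigs. There the difference was 0.04 ± 0.07 (limma adjusted p 0.893). The test of the difference between the arteries' training responses gave 0.24 ± 0.09, with a limma p of 0.0138 before adjustment and 1 after it. The parent gene RPL22 differed by 0.01 in the brachial artery (limma adjusted p 0.936).

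RPSA was the only member whose brachial groups did not overlap. The share of all probe sets that separate in this way is not given here, so this sets RPSA apart from the other members alone. Its lowest, median and highest were 13.51, 13.64 and 13.74 in exercised brachial arteries (mean 13.63 ± 0.0732, SD, n = 7), against 13.42, 13.45 and 13.49 in sedentary ones (13.45 ± 0.0296, SD, n = 7). The difference of 0.17 ± 0.05 had a limma adjusted p of 0.0748. In the internal mammary artery the values were 13.48, 13.61 and 13.67 in exercised pigs (13.59 ± 0.0721, SD, n = 8), against 13.34, 13.48 and 13.71 in sedentary pigs (13.49 ± 0.113, SD, n = 7). Here 7 of 8 exercised arrays lay above the sedentary mean but 1 sedentary array was the highest of all, and the difference of 0.11 ± 0.05 had a limma adjusted p of 0.379.

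Other members with small unadjusted p in the brachial artery were RPL15, RPS6 and RPL3, all core ribosomal proteins. Their differences were 0.11, 0.09 and 0.09, with limma adjusted p of 0.188, 0.305 and 0.323. RPLP0, the core of the ribosomal stalk, differed by 0.08 ± 0.04 (0.352). RPL5 and RPL11 differed by 0.03 ± 0.04 and -0.01 ± 0.04 in the brachial artery, and by -0.01 ± 0.04 each in the internal mammary artery.

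In the internal mammary artery no ribosomal protein gene passed either, where 0.596% of all probe sets did. The signs were the other way: 10 members had higher means in exercised pigs and 53 lower, where 52% of all probe sets were higher. An unadjusted limma p under 0.05 was found for 5 members, and for 2945 of all 23999 probe sets. The members' median was -0.03, against 0.01 over all probe sets. The differences ranged from -0.20 to 0.11. Large subunit genes had a median of -0.05 with 6 of 38 positive, and small subunit genes a median of -0.02 with 4 of 25 positive.

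RPS27, a zinc-finger protein of the small subunit, was the only member whose internal mammary groups did not overlap. For this artery too the share of all probe sets that separate is not given here. Its lowest, median and highest were 13.79, 13.82 and 13.87 in exercised pigs (mean 13.83 ± 0.0345, SD, n = 8), against 13.88, 13.94 and 14.02 in sedentary pigs (13.95 ± 0.0561, SD, n = 7). The difference of -0.12 ± 0.04 had a limma adjusted p of 0.153, and it was -0.05 ± 0.04 in the brachial artery (limma adjusted p 0.585). The second probe set of RPS27 went the opposite way, and it is named here because its values were seen. It read 9.67, 9.70, 9.78, 9.82, 9.99, 10.05 and 10.07 in exercised brachial arteries, against 9.03, 9.20, 9.28, 9.39, 9.42, 9.49 and 9.75 in sedentary ones. Only the highest sedentary value lay within the exercised range, and this probe set rose by 0.49 ± 0.12 (limma adjusted p 0.0263, lost without pig 10_5, 11_4, 12_5 or 17_1, up to 0.0746). In the internal mammary artery it differed by 0.17 ± 0.11 (limma adjusted p 0.587). The 2 probe sets thus give no common direction for RPS27.

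The lowest internal mammary differences were those of RPS27L, RPL37 and RPL7L1. They were -0.20 ± 0.09, -0.17 ± 0.08 and -0.16 ± 0.07, with limma adjusted p of 0.322, 0.349 and 0.365. RPL26L1, a paralog of RPL26, differed by -0.10 ± 0.06 (limma adjusted p 0.584).

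**Figure D2:**
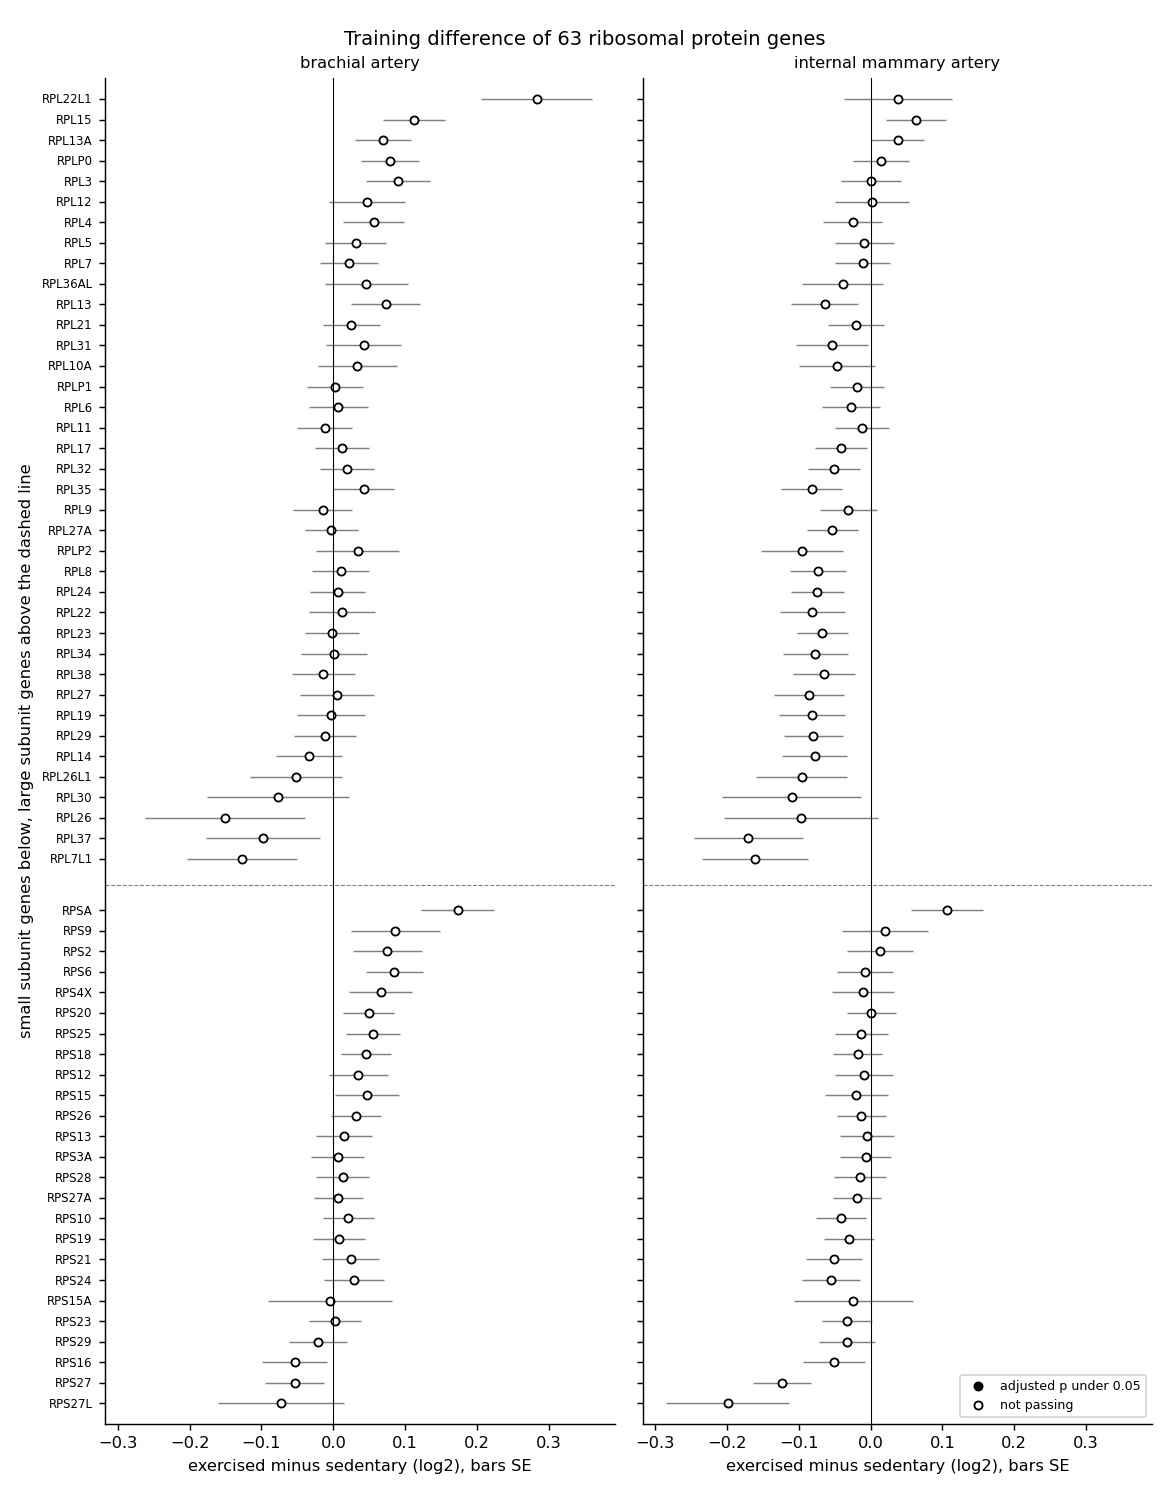
Training difference (exercised minus sedentary, log2, bars SE) of the 63 genes in the brachial artery and in the internal mammary artery, large subunit genes above the dashed line. No gene passed in either artery; 45 differences are positive in the brachial artery and 10 in the internal mammary artery.

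Over the mean of both arteries 1 ribosomal protein gene passed, RPSA, where 4.68% of all probe sets passed and 2.88% rose. It rose by 0.14 ± 0.04 in exercised pigs, which is 1.10-fold, with a limma adjusted p of 0.0404. This call is marginal: it was lost when any of 11 of the 15 pigs was left out (adjusted p up to 0.0871) and with pig as a fixed block (0.0822). The median over the 63 genes was -0.01, with 24 positive and 39 negative, against 0.01 and 53.3% positive over all probe sets. RPS27 differed by -0.09 ± 0.03 (limma adjusted p 0.116), RPL22L1 by 0.16 ± 0.06 (0.126) and RPL7L1 by -0.14 ± 0.06 (0.172).

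The training response of the 2 arteries was compared directly. No ribosomal protein gene passed, and 0% of all probe sets did. An unadjusted limma p under 0.05 was found for 3 members, and for 1035 of all 23999 probe sets. The brachial training difference was above the internal mammary one in 61 of 63 members, with a median of 0.06, against 0.004 and 51.4% positive over all probe sets. This held in 37 of 38 large and 24 of 25 small subunit genes. It also held in 42 of 58 mitochondrial ribosomal protein genes (median 0.05). Ribosome biogenesis genes had 21 of 54 positive (median -0.025), translation factors 22 of 40 (0.017) and mTOR pathway genes 7 of 17 (-0.005). In 35 members the difference was positive in the brachial artery and negative in the internal mammary artery, in 18 it was negative in both and in 10 positive in both. The members are correlated with each other, so 61 genes of one sign are not 61 separate observations.

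The mean deviation of the 63 genes per array shows the size of this shift. It ran from -0.029 to 0.037 in exercised brachial arteries, from -0.083 to 0.014 in sedentary brachial arteries, from -0.071 to 0.035 in exercised internal mammary arteries and from -0.045 to 0.116 in sedentary internal mammary arteries. All 4 groups overlapped. Their means were 0.001, -0.020, -0.010 and 0.030, and the SD between arrays was 0.0352. The highest array was that of pig 11_1, and pig 17_1 was the lowest in both sedentary groups. The 28S/18S ratio of the RNA averaged 1.41 in exercised and 1.38 in sedentary brachial arteries, and 1.33 in exercised and 1.19 in sedentary internal mammary arteries. The median difference between the arteries' training responses was 0.06 with 60 of 63 members positive both with this ratio and with the smooth muscle markers as a covariate. It was 0.04 with 54 positive in the 7 pigs with the latest labelled dates, 0.09 in the 8 pigs with the earliest, and 0.04 with the arrays quantile-normalized again. The macrophage markers differed in the same comparison by a median of -0.58, with 7 of 9 negative and 0 passing the limma test (6 at an unadjusted p under 0.05), and their part in the result was not tested.

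**Figure D3:**
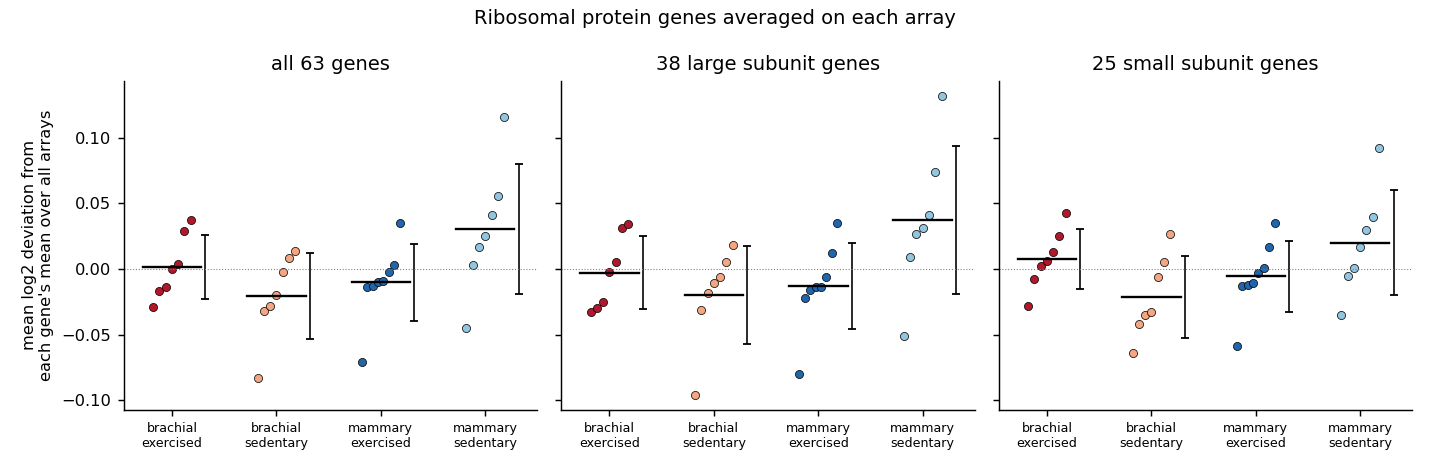
Mean log2 deviation of all 63, the 38 large subunit and the 25 small subunit genes per array (each gene centred on its mean over 29 arrays), 1 point per pig, with the group mean as a line and the SD as a bar. The groups overlap in each panel, and for all 63 genes the sedentary internal mammary arrays reach the highest value, 0.116.

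Within an artery the members moved together from pig to pig. After the group means were removed, the median Pearson correlation over 1953 gene pairs was 0.272 among 14 brachial arrays and 0.367 among 15 internal mammary arrays, with 74.8% and 84% of pairs positive. Spearman medians were 0.253 and 0.309. Over all gene pairs the Pearson medians were 0.016 and 0.0293. Large subunit genes had medians of 0.315 and 0.402, and small subunit genes 0.239 and 0.296. The points of a pair share their arrays and their normalization, so these values are a description.

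Between arteries the ribosomal protein genes passed in larger numbers than with training, and most of those that passed over both training groups were lower in the brachial artery. Over the mean of both training groups 26 of 63 members passed (41.3%), where 54.3% of all probe sets did: 6 rose in the brachial artery (31.8% of all probe sets rose) and 20 fell (22.5% fell). In exercised pigs 13 passed (20.6%), where 41.2% of all probe sets did, 7 of them higher in the brachial artery (24.2% of all) and 6 lower (17% of all). In sedentary pigs 20 passed (31.7%), where 34.8% of all probe sets did, 1 higher (20.5% of all) and 19 lower (14.2% of all). The member medians were -0.02, 0.00 and -0.06, against 0.03, 0.04 and 0.03 over all probe sets. The 7 members that passed in both training groups had the same direction in both: RPL12, RPL13A, RPL31, RPS16, RPS21 and RPS29 fell and RPL30 rose. Single pigs decided some of these calls: left out in turn, 2 pigs ended that of RPS21 in exercised pigs (11_3 and 12_5, limma adjusted p up to 0.0766), 5 that of RPS29 in exercised pigs (10_1, 10_5, 11_3, 12_5 and 15_4, up to 0.119) and 1 that of RPS16 in sedentary pigs (12_3, 0.0637).

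These splits depend on how the arrays are scaled. With each array centred on its own median, 16 members rose and 7 fell over the mean of both training groups (median 0.03), 20 rose and 1 fell in exercised pigs (median 0.06), and 3 rose and 5 fell in sedentary pigs (median -0.01). In exercised pigs RPL12, RPS16, RPL13A, RPS21 and RPS29 then no longer passed (limma adjusted p 0.133 to 0.543), whereas RPL31 still did (0.0313). RPL31, RPL35 and RPLP2 kept their direction and passed under all 27 alternatives tried for the mean of both training groups. RPL30 did so under 26, as its dim probe set is not in the fit without the dimmest probe sets. RPL30 and RPLP2 have 1 probe set each, so averaging the probe sets of a gene could not change their values.

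RPL31, a large subunit protein near the exit of the nascent chain, had the largest fall. Its lowest, median and highest were 13.13, 13.24 and 13.25 in exercised brachial arteries, against 13.27, 13.41 and 13.47 in exercised internal mammary arteries. In sedentary pigs they were 12.92, 13.23 and 13.28 in brachial arteries, against 13.24, 13.46 and 13.53 in internal mammary arteries. The brachial value was lower in 14 of 14 pigs, and the arteries did not overlap in exercised pigs. The difference was -0.23 ± 0.03 over both training groups (limma adjusted p 7.65e-07), -0.18 ± 0.04 in exercised pigs (0.00179) and -0.27 ± 0.04 in sedentary pigs (2.73e-05). A second RPL31 probe set fell too, by 0.15 (limma adjusted p 9.74e-05). Such agreement was not general: of the 19 other probe sets of members that passed over both training groups, 8 had the sign of the member, as did 3 of 7 in exercised and 6 of 15 in sedentary pigs.

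RPL35, another large subunit protein near the exit tunnel, fell by 0.14 ± 0.03 (limma adjusted p 5.53e-05) and was lower in 14 of 14 pigs. The difference was -0.20 ± 0.04 in sedentary pigs (0.000128) and -0.08 ± 0.04 in exercised pigs (0.0909). RPS21, a small subunit protein, had 13.74, 13.77 and 13.81 as its lowest, median and highest in exercised brachial arteries, against 13.83, 13.87 and 13.93 in exercised internal mammary arteries. In sedentary pigs these were 13.65, 13.77 and 13.81 in brachial arteries, against 13.83, 13.94 and 14.01 in internal mammary arteries. The arteries did not overlap in either training group, and RPS21 fell by 0.14 ± 0.02 (limma adjusted p 3.27e-05). RPL12, part of the stalk base where translation factors bind, fell by 0.16 ± 0.03 (limma adjusted p 0.000136). RPL13A, known also as part of an interferon-responsive translation silencer, fell by 0.12 ± 0.02 (0.000105), and RPS16 fell by 0.12 ± 0.03 (0.000345). Of the 20 members that fell, 11 were lower in the brachial artery of all 14 pigs, and no member that fell was lower in fewer than 12. These 20 members were picked for passing on the same arrays, so high pig counts follow in part from the choice. The share of all probe sets with such counts, or with arteries that do not overlap, is not given here for any gene. These pig counts use the values without median centring. The array medians were lower in the brachial artery too. They averaged 7.16 in exercised and 7.17 in sedentary brachial arteries, against 7.22 in exercised and 7.21 in sedentary internal mammary arteries.

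Other members were higher in the brachial artery. RPS6, the S6 kinase substrate, had 13.55, 13.68 and 13.74 in exercised brachial arteries, against 13.42, 13.51 and 13.54 in exercised internal mammary arteries, with no overlap. In sedentary pigs it had 13.53, 13.57 and 13.60 in brachial arteries, against 13.44, 13.51 and 13.60 in internal mammary arteries, where the groups overlapped. RPS6 rose by 0.16 ± 0.03 in exercised pigs (limma adjusted p 0.000586), differed by 0.06 ± 0.03 in sedentary pigs (0.170), and rose by 0.11 ± 0.02 over both (0.000446).

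RPLP2, an acidic stalk protein that recruits elongation factors, had 12.47, 12.66 and 12.81 in exercised brachial arteries, against 12.30, 12.41 and 12.64 in exercised internal mammary arteries. In sedentary pigs it had 12.47, 12.64 and 12.65 in brachial arteries, against 12.28, 12.53 and 12.64 in internal mammary arteries. It was higher in the brachial artery of 13 of 14 pigs, rose by 0.14 ± 0.04 over both training groups (limma adjusted p 0.0011) and by 0.21 ± 0.05 in exercised pigs (0.00126), and differed by 0.08 ± 0.05 in sedentary pigs (0.230). The other stalk proteins, RPLP0 and RPLP1, did not pass between arteries.

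RPL30, a large subunit protein, had the largest rise, 0.46 ± 0.06 (limma adjusted p 2.63e-07), and was higher in 13 of 14 pigs, on a dim probe set. It had 4.59, 4.84 and 5.15 in exercised brachial arteries, against 4.23, 4.38 and 4.53 in exercised internal mammary arteries, and 4.55, 5.01 and 5.21 in sedentary brachial arteries, against 4.29, 4.53 and 4.73 in sedentary internal mammary arteries. RPS15A, also dim, rose by 0.14 ± 0.05 (limma adjusted p 0.0215), RPS27L by 0.13 ± 0.05 (0.034) and RPL6 by 0.07 ± 0.02 (0.018). RPL22L1 and RPL4 passed in exercised pigs, where they rose by 0.18 and 0.09 (limma adjusted p 0.0262 and 0.0484). With single pigs left out in turn, the RPS15A call was lost without 10_5 or 11_3 (adjusted p 0.0581), that of RPL22L1 without 10_5 or 15_4 (up to 0.0563), that of RPS27L without any of 8 pigs (up to 0.0845) and that of RPL4 without any of 12 pigs (up to 0.121). RPS15A differed by 0.05 and did not pass with the arrays quantile-normalized again, and in the fit that adds the 28S/18S ratio RPS15A (adjusted p 0.118), RPS27L (0.359) and RPL6 (0.0732) did not pass. RPL6 also did not pass with pig as a fixed block.

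**Figure D4:**
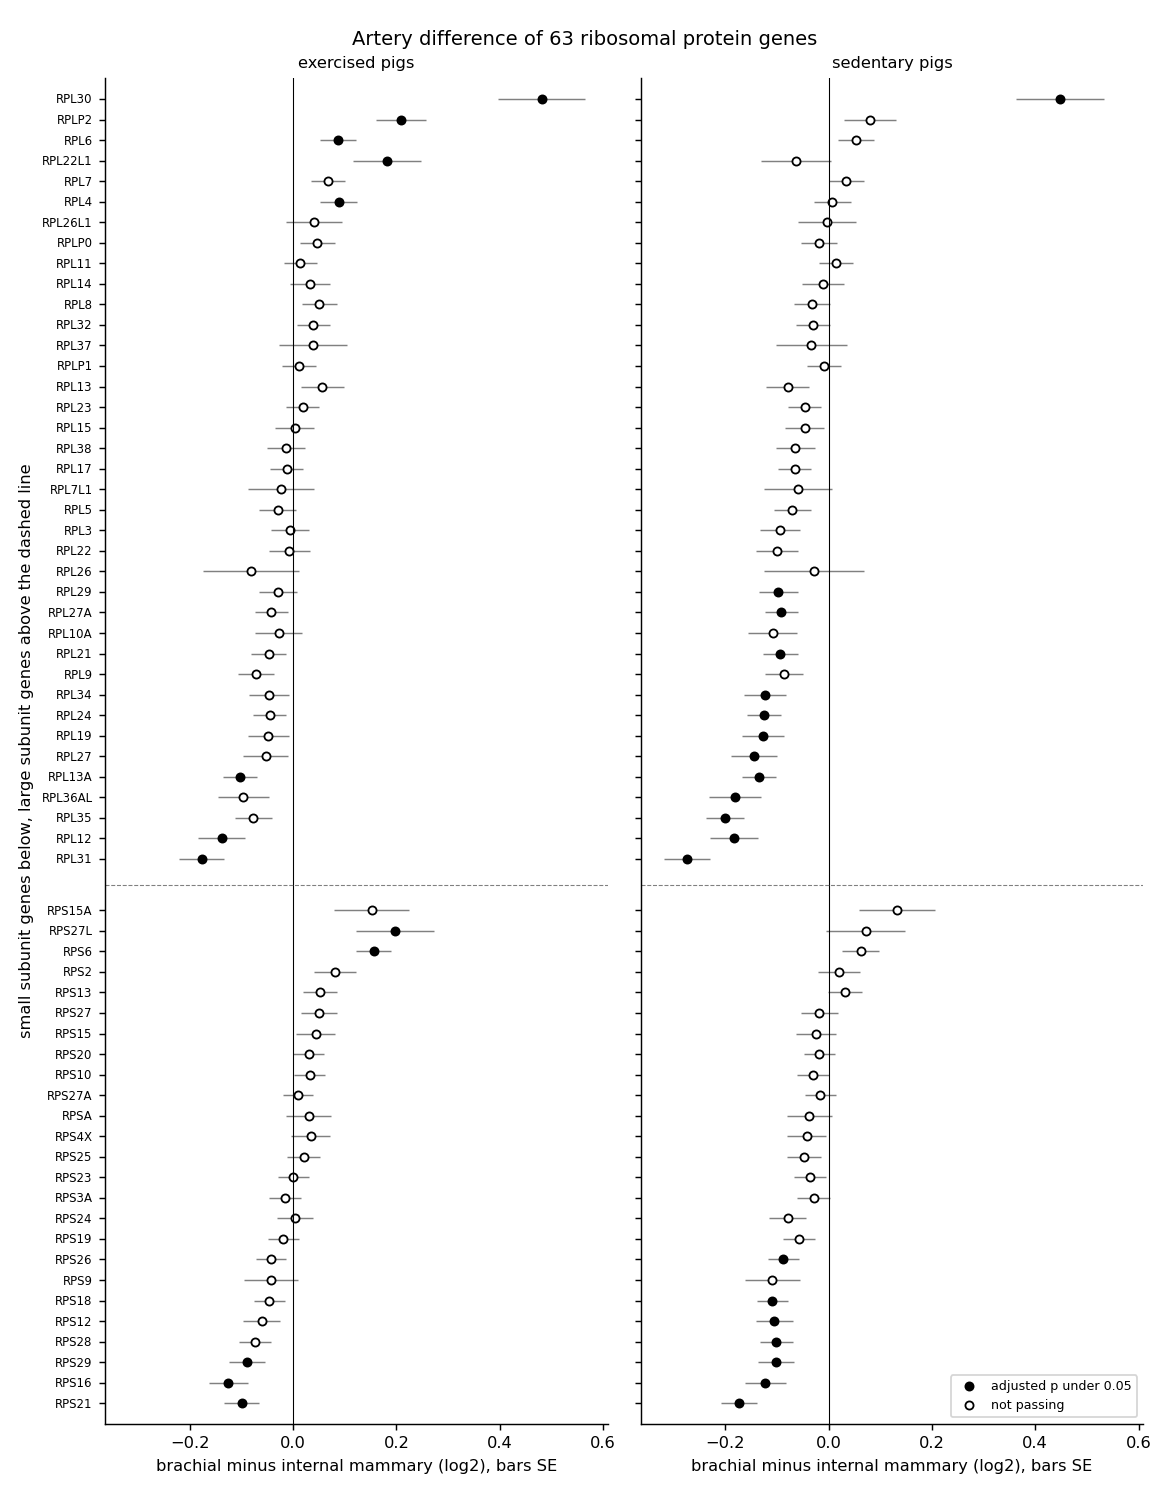
Artery difference (brachial minus internal mammary, log2, bars SE) of the 63 genes in exercised pigs and in sedentary pigs, large subunit genes above the dashed line and filled points passing. The points run from RPL30, the highest in both panels, to RPL31, the lowest.

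The artery differences of the bright probe sets were small beside those of a second probe set of the same genes. For 8 members (RPL6, RPL12, RPL13A, RPL17, RPL23, RPL24, RPL32 and RPS6) the array carries a second, dimmer probe set whose identifier differs only in 1 letter; this comparison was added after the data were seen. The second probe sets rose in the brachial artery in 8 of 8 genes in each of the 3 artery comparisons (in 6 of 8 in sedentary pigs when the fit held only the 8 pigs with the earliest labelled dates). Of all probe sets, 24.2% rose in exercised pigs, 20.5% in sedentary pigs and 31.8% over both. The median difference of the second probe sets was 1.51 in exercised pigs, 1.30 in sedentary pigs and 1.40 over both. For the probe sets described above it was 0.00, -0.06 and -0.03. Over both training groups RPL32 rose by 1.83 ± 0.12, RPL6 by 1.66 ± 0.13 and RPS6 by 1.29 ± 0.11, and the smallest rise was that of RPL24, 0.85 ± 0.13.

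The second RPL32 probe set had 10.32, 10.54 and 10.99 in exercised brachial arteries, against 8.24, 8.62 and 9.02 in exercised internal mammary arteries. In sedentary pigs it had 9.30, 10.50 and 10.90 in brachial arteries, against 8.01, 8.58 and 9.18 in internal mammary arteries. The arteries did not overlap. The second probe sets were higher in the brachial artery of 14 of 14 pigs in 6 genes and of 13 of 14 pigs in RPL13A and RPL24. For RPL12, RPL13A and RPL24 the brighter probe set fell while the second one rose, so these genes have no direction that both probe sets share.

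Other genes with bright probe sets showed such rises too. Among the other pairs of that kind whose brighter probe set had a mean above 13, the second one rose in 6 of 6 pairs over both training groups (median 1.40, against 0.05 for the brighter) and in 5 of 6 in exercised and in sedentary pigs each. Of all probe sets, 24.2% rose in exercised and 20.5% in sedentary pigs. Among all 371 other pairs, over both training groups, the dimmer one rose in 205 and fell in 16. Of all probe sets 31.8% rose and 22.5% fell there. The dimmer ones of these pairs had a median of 0.15, as did the brighter ones. The actin 3′ minus 5′ control value, which grows as RNA is shortened, was also higher in the brachial artery. It ran from 1.91 to 2.54 in exercised and 1.80 to 2.74 in sedentary brachial arteries. In internal mammary arteries it ran from 1.11 to 1.41 in exercised and 1.03 to 1.75 in sedentary pigs, with no overlap between arteries. The value for elongation factor 1 alpha went the same way, with means of 0.41 in exercised and 0.47 in sedentary brachial arteries against 0.11 in exercised and 0.18 in sedentary internal mammary arteries. The GAPDH value went the other way, with means of 0.37 in exercised and 0.43 in sedentary brachial arteries against 0.59 in exercised and 0.72 in sedentary internal mammary arteries. The 28S/18S ratio averaged 1.41 in exercised and 1.38 in sedentary brachial arteries, against 1.33 in exercised and 1.19 in sedentary internal mammary arteries. The mean deviation of the 8 second probe sets also differed with the labelled date within the internal mammary artery, from -0.674 to -0.123 in the 7 pigs with the latest dates and from -1.284 to -0.707 in the 8 pigs with the earliest. The part of these measures in the result was not tested. Whether the control values follow the second probe sets from pig to pig within an artery was not tested either.

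With training 0 of the 8 second probe sets passed the limma test in either artery (0 of them at an unadjusted p under 0.05 in either artery). All 8 differences were positive in the brachial artery (0.16 to 0.34, median 0.26) and in the internal mammary artery (0.00 to 0.18, median 0.02). The lowest brachial array was that of sedentary pig 11_4, at a mean deviation of -0.441, below some internal mammary arrays.

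**Figure D5:**
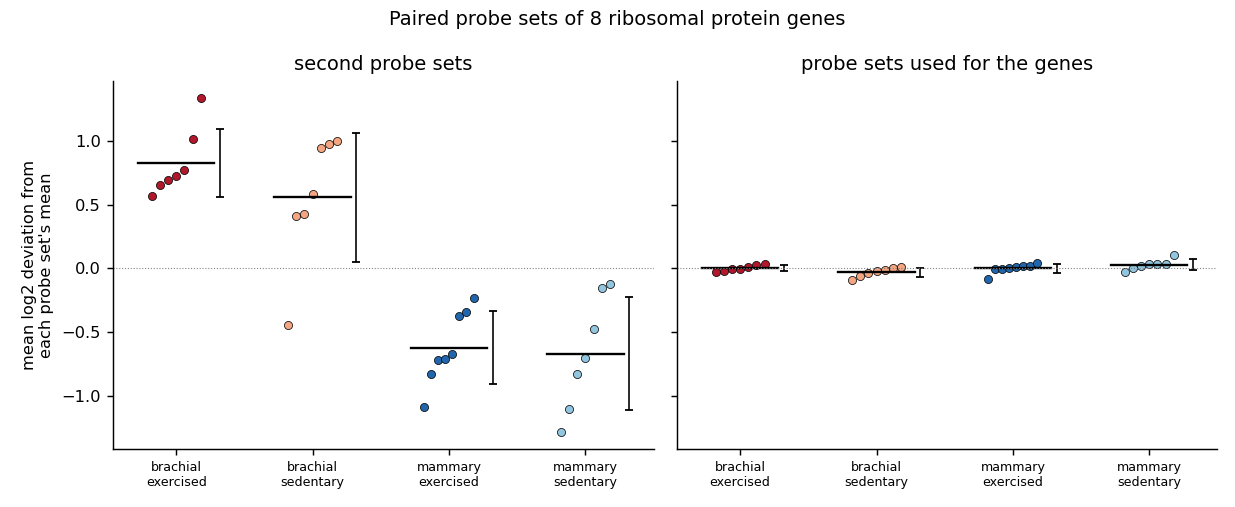
Mean log2 deviation per array of the 8 second probe sets and of the 8 probe sets used for the same genes, 1 point per pig, with the group mean as a line and the SD as a bar. The second probe sets average 0.82 in exercised and 0.56 in sedentary brachial arteries and -0.62 in exercised and -0.67 in sedentary internal mammary arteries, while all arrays of the probe sets used lie between -0.092 and 0.105.

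Genes that make or use ribosomes were set beside them. Of 54 ribosome biogenesis genes, which transcribe ribosomal RNA and assemble subunits in the nucleolus, 13 fell and 0 rose with training over the mean of both arteries, with a median of -0.20 and 49 negative. Of all 23999 probe sets 433 fell and 690 rose there, with a median of 0.01 and 11207 negative. In the same comparison smooth muscle markers were negative in 12 of 12 (median -0.29) and macrophage markers in 8 of 9 (median -0.37), with 0 passing in either list (0 and 3 at an unadjusted p under 0.05). With the smooth muscle markers as a covariate 15 biogenesis genes fell, and the part of the macrophage markers was not tested. POLR1B, a subunit of RNA polymerase I, fell by 0.32 ± 0.07 (limma adjusted p 0.0112), NOP56, a box C/D ribonucleoprotein core protein, by 0.44 ± 0.10 (0.0133), EMG1, a methyltransferase of 18S RNA, by 0.24 ± 0.06 (0.0192) and NHP2, a box H/ACA protein, by 0.43 ± 0.12 (0.0289). Within either artery 0 of the 54 passed, with 25 brachial and 20 internal mammary differences at an unadjusted p under 0.05. Of all 23999 probe sets 3686 brachial and 2945 internal mammary differences were under that limma p. Of the differences of the 54 genes 49 were negative in brachial arteries and 51 in internal mammary arteries, and both medians were -0.19. The count ran from 3 to 14 with a pig left out and from 0 to 19 over the other alternatives, and the median was negative in all, between -0.28 and -0.07.

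Of 40 translation factors, 2 rose and 2 fell over the mean of both arteries. EIF2B2, a subunit of the exchange factor for eIF2, rose by 0.28 ± 0.06 (limma adjusted p 0.00672) and EIF4B, a cofactor of the eIF4A helicase, by 0.27 ± 0.08 (0.0464). EIF2S1, the alpha subunit of eIF2, fell by 0.24 ± 0.06 (0.0302) and EIF4E, which binds the cap, by 0.27 ± 0.08 (0.0479). Of 58 mitochondrial ribosomal protein genes, 3 fell and 42 were negative, with a median of -0.05, MRPS27 falling by 0.29 ± 0.05 (limma adjusted p 0.00215). The number that fell ran from 0 to 4 over the alternatives, and those of translation factors ran from 0 to 2 that rose and 0 to 4 that fell. Of 17 genes of the mTOR pathway 0 passed, with 1 at an unadjusted p under 0.05. These counts stand against the 4.68% of all probe sets that passed, and the 4447 of 23999 with an unadjusted limma p under 0.05.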

How the data were processed

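The deposited values are log2 intensities per probe set on single-colour porcine arrays, made by the authors; affy is named per the submitters' processing notes, without a version, and the summary and normalization method is not given in the sources used here. Groups came from titles and treatment tags, and each replicate is a pig. For the 8 internal mammary samples of exercised pigs a label names them sedentary, and titles were followed.

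Of 24123 probe sets, 124 controls were left out. The other 23999 were fitted in limma 3.58.1 (R 4.3.3, with data.table, version 1.17.8) with 4 group means, pig as a random block (consensus correlation 0.255) and Benjamini-Hochberg adjustment at 0.05. The pairing comes from the pig numbers in the titles. Symbols came from the platform annotation, and all 63 members were found in the RefSeq genes. Plotting used Python 3.11.15 and matplotlib 3.10.9, and the fit was tested on simulated data.

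Members and lists were chosen with earlier results of these data known. Named members are the largest passing rises and falls of a comparison (up to 12 each), or, where fewer than 10 pass, these and the 5 positive and 5 negative differences with the smallest p, with RPLP0, RPLP1, RPLP2, RPSA, RPS6, RPL5, RPL11, the paralogs and the 5 members with the largest SD; of other lists, up to 4. Alternatives, 12 in number beside leaving out each of 15 pigs in turn, changed the block, scaling, filter, covariates, pigs and probe set choice. The number of arrays limits the precision.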

Additional observations from a re-analysis of the deposited data

Results flagged for a closer look

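In 148 sets of 7 or 8 arrays, 12 held an array far from the others by Dixon's test, which chance alone flags in about 1 of 20 sets. Pig 11_1 had the highest sedentary internal mammary value for RPL26 (7.11, next 6.39), RPL14 (13.77, next 13.60) and RPL12 (13.86, next 13.65). Pig 17_1 had the lowest RPL31 value of its group in both arteries, 12.92 in the sedentary brachial group (next 13.14) and 13.24 in the sedentary internal mammary group (next 13.45). RPL31 was also low in exercised brachial pig 14_3 (13.13, next 13.23).

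The remaining arrays were single cases. RPL7L1 was high in sedentary internal mammary pig 12_3 (11.34, next 10.96), RPL37 was low in sedentary brachial pig 11_4 (9.17, next 9.47) and RPLP2 was high in exercised internal mammary pig 10_1 (12.64, next 12.45). Pig 10_5 was low for RPS18 in the exercised internal mammary artery (14.65, next 14.70) and high for RPL26L1 in the exercised brachial artery (11.61, next 11.31). The mean deviation of all 63 genes was lowest among exercised internal mammary arteries in pig 12_2 (-0.071, next -0.014).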

How the results depend on the processing

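No member passed for training in the internal mammary artery or for the difference between the arteries' responses under any alternative. In the brachial artery the count was 0, against 1 without the dimmest probe sets, 2 with median centring, 1 with days as a covariate, 2 with smooth muscle markers as a covariate, 1 with all probe sets of a gene averaged, and 0 to 1 with a pig left out (1 without 12_3). Over the mean of both arteries RPSA alone passed, against 0 with pig as a fixed replicate block, with the 28S/18S ratio, in the 8 earliest or the 7 latest pigs, and 0 to 1 with a pig left out. Between arteries in exercised pigs 13 members passed, against 8 with no replicate block, 8 with the fixed replicate block, 21 with median centring (median difference 0.0586), 7 with the 28S/18S ratio, 4 in the earliest and 2 in the latest pigs, 22 with averaging, and 8 to 14 with a pig left out (8 without 10_5, 11_3 or 15_4). In sedentary pigs it was 20, against 12 with no replicate block, 13 with the fixed replicate block, 8 with median centring (median -0.0129), 3 earliest, 1 latest, and 13 to 22 with a pig left out (13 without 12_3). Over both training groups it was 26, against 9 earliest, 6 latest and 23 to 28 with a pig left out, with a centred median of 0.0287. Fewer pigs enter the earliest and latest fits; for the other changes the cause was not tested. Averaging, which brings in the second probe sets, turned 11 values positive: RPL12 (exercised 0.405, sedentary 0.317, mean 0.361), RPL13A (exercised 0.422, sedentary 0.327, mean 0.375), RPL27 (sedentary 0.036, mean 0.053), RPL24 (sedentary 0.275, mean 0.381) and RPS28 (mean 0.259). Of 45 passing results for named members, 6 kept their call under every alternative that held their probe set. No scanner files were used here, so signal over background was not measured.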
